A study of Mus musculus with 24 samples.

Results

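The conjugating enzymes of mouse liver were followed as 69 genes of the UDP-glucuronosyltransferase (UGT), cytosolic sulfotransferase (SULT), and cytosolic and microsomal glutathione transferase (GST and MGST) families. They were taken by gene symbol from the 21595 genes that carry a symbol in the deposited comparison tables. The set held 21 UGT, 21 SULT and 27 GST or MGST genes, and 55 of the 69 passed the filter on low counts and were tested among 20514 genes. Polyadenylated RNA was sequenced from livers of 4 genotypes at circadian time 2 (CT2) and circadian time 14 (CT14), with 3 libraries in each of 8 groups. Wild-type mice (WT, Bmal1+/+) and global knockouts of the clock transcription factor BMAL1 (KO, Bmal1-/-) were bred from Bmal1+/- parents on C57BL/6J. Liver-specific knockouts (LKO, Alb-Cre; Bmal1f/f) were compared with mice that carried the same floxed alleles and no Cre (F, Bmal1f/f), so both of these groups share the floxed allele. Alb-Cre is driven by the albumin promoter, which acts chiefly in hepatocytes, and other liver cells of LKO mice keep the gene. Age and sex are not given in the labels. Nor do they state that replicates were separate animals, and the p-values then reflect only the spread among these libraries, which may be technical.

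Phase II metabolism attaches a polar group to hormones, bilirubin, bile acids, drugs and reactive products so that they can be exported in bile or urine. UGTs transfer glucuronic acid from UDP-glucuronic acid, SULTs transfer sulfate from the donor PAPS, and GSTs join the thiol of glutathione to electrophiles. The liver is a main site of all 3 reactions, and transcription of these families is known to respond to xenobiotic receptors, the oxidative stress factor NRF2, growth hormone with its sex-dependent pattern, and the clock-controlled PAR bZIP factors.

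The summed estimated counts ran from 88995300 to 131545000 per library. Bmal1 itself stood at 26.6 to 33.8 CPM (counts scaled to library size) in the WT and F libraries at CT2 and at 6.57 to 7.91 CPM in the KO and LKO libraries at CT2. At CT14, when the gene is low in the normal cycle, WT and F libraries held 2.93 to 15 CPM and KO and LKO libraries 5.46 to 7.53 CPM, so the labels can be checked only at CT2. All 6 hepatocyte markers were found, and their sum was 81500 to 116000 CPM in WT, 53500 to 89300 in KO, 90900 to 135000 in F and 59200 to 88000 in LKO libraries. In bulk tissue, fewer hepatocytes, less RNA per hepatocyte and lower levels of these 6 transcripts alone cannot be told apart. F CT2 replicate 3 and LKO CT2 replicate 3 stood apart with 16.6 and 26.1 CPM of 4 Y-linked genes, against 65.9 to 113 CPM in the other 22, while Xist was at most 0.362 CPM everywhere. F CT2 replicate 3 and F CT14 replicate 3 carried 1450 and 411 CPM of 6 pancreatic acinar genes, against at most 102 CPM elsewhere. Spermatid transcripts were at most 0.407 CPM in WT libraries, 3.34 to 14.9 CPM in every F and LKO library, 3.47 CPM in KO CT2 replicate 2 and 3.76 CPM in KO CT14 replicate 1. The part of these differences in the results was not tested except where a value without the libraries is given.

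By length-corrected level (TPM), the 69 genes together made up 16020 to 27170 TPM per library. Over all libraries the microsomal family took 23.1% of this sum, nearly all of it Mgst1, followed by the mu class of GSTs with 20.5%, the pi class with 17.5%, and the alpha class and the UGT2 family with 10.6% each. All UGTs together took 15.2% and all SULTs 4.12%. The 14 members that were not tested, 6 of them Sult2a genes, reached at most 0.183 TPM in any library. The sum was 17820 ± 2360 TPM in WT and 21470 ± 5003 TPM in KO at CT2 (SD, n = 3 each), and 17710 ± 2366 in F and 23210 ± 3320 TPM in LKO at CT2. At CT14 it was 17850 ± 284 TPM in WT, 18920 ± 1934 in KO, 17400 ± 774 in F and 21090 ± 294 TPM in LKO. The mu class rose from 2524 ± 885.5 TPM in WT to 6994 ± 2828 TPM in KO at CT2, and from 2215 ± 310.5 to 5115 ± 819.6 TPM at CT14, as class sums with no test of their own.

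**Figure D1:**
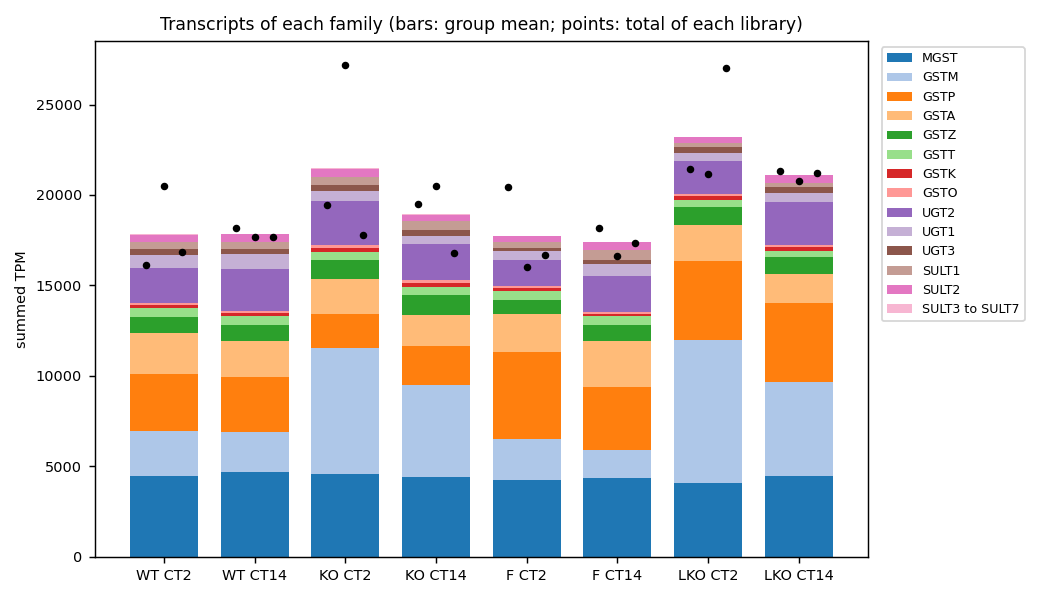
Summed TPM of each family by group (stacked bars, mean of 3 libraries) with the total of each library as a point; the vertical axis is TPM from 0. The mu-class segment (GSTM) is 5115 to 7898 TPM high in the KO and LKO groups and 1524 to 2524 TPM in the WT and F groups, and the highest points are KO CT2 replicate 2 (27170 TPM) and LKO CT2 replicate 3 (27040 TPM).

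In livers without BMAL1, several mu-class GST transcripts were higher, and Ugt1a9 lower, in both the global and the liver-specific knockout. Gstt2 was also called lower in both, but its LKO call was lost in 12 of 35 alternative analyses. With edgeR's quasi-likelihood test and an adjusted p under 0.05 over all genes, 12 members passed in KO against WT averaged over both times, where 5.4% of all tested genes passed. They were 7 higher members (3.11% of all genes) and 5 lower (2.29%). Here and below a log2 fold change is followed by ± its standard error (SE). In LKO against F, 13 members passed, where 3.13% of all tested genes passed, with 7 higher (1.7%) and 6 lower (1.43%). That is 21.8% and 23.6% of the 55 tested members, above both backgrounds. The median log2 fold change of the tested members was -0.01 in KO and -0.02 in LKO, beside 0.01 and -0.01 over all genes, while the families went different ways. All 7 mu-class genes had log2 fold changes above 0, with a median of 1.14 in KO and 1.45 in LKO, and all 6 alpha-class genes below 0, with medians of -1.78 and -0.99. Gstm1, Gstm2, Gstm3, Gstm6, Gstm7 and Gstp3 rose and Ugt1a9 and Gstt2 fell in both comparisons, which is 8 of the 12 KO calls and 8 of the 13 LKO calls. No member passed in opposite directions. By TPM alone, the 6 KO libraries lay above all 6 WT libraries for 9 tested members (3.93% of all genes) and below them for 1 (0.561%), and the 6 LKO libraries lay above all 6 F libraries for 6 (2.61%) and below for 1 (0.346%).

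**Figure D2:**
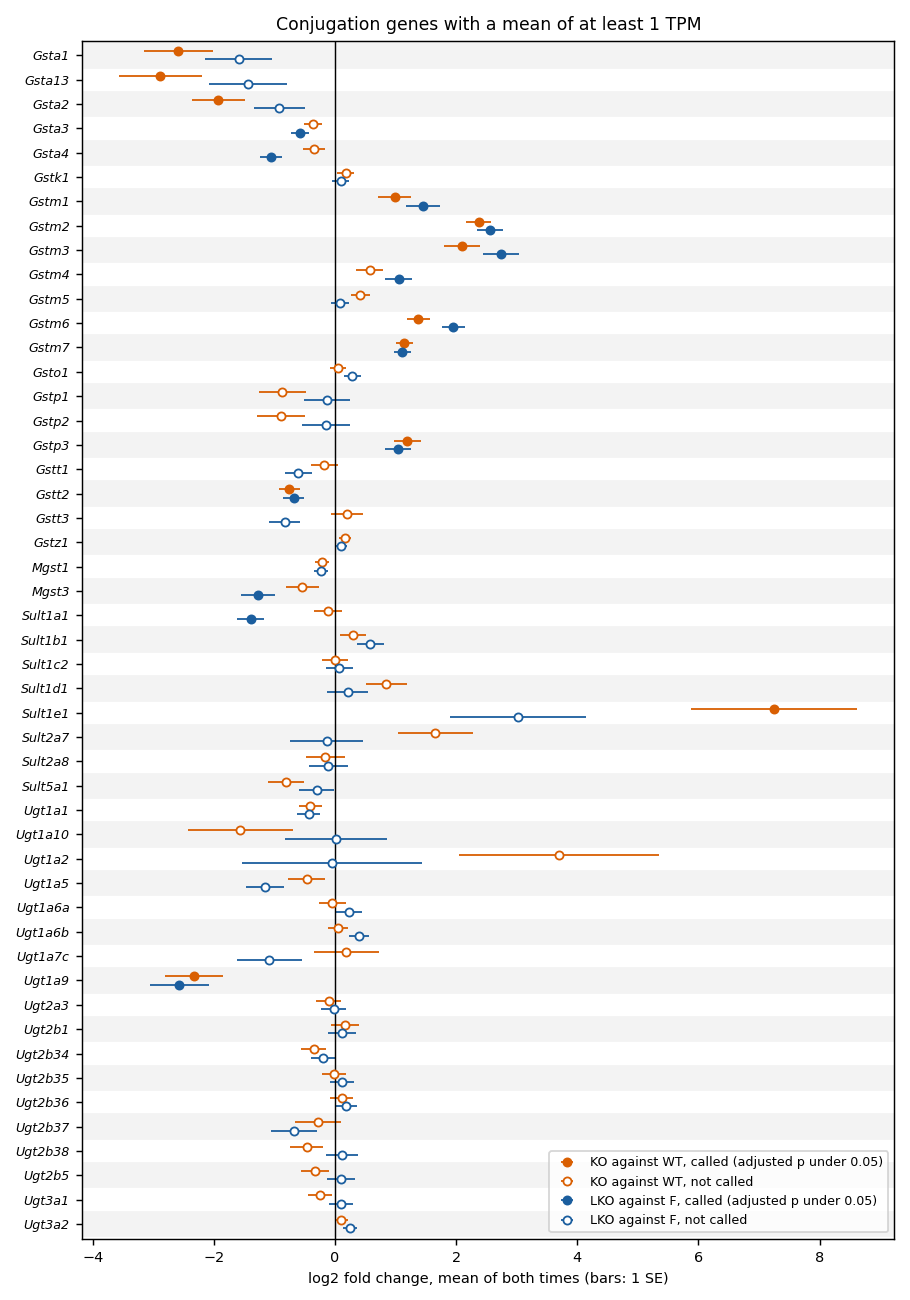
Log2 fold change (horizontal axis, mean of both times, bars 1 SE) of the 49 tested members with a mean of at least 1 TPM, for KO against WT (orange) and LKO against F (blue); filled points passed an adjusted p of 0.05. Gstm2, Gstm3, Gstm6, Gstm7, Gstm1 and Gstp3 lie to the right with filled points in both comparisons, Ugt1a9 and Gstt2 to the left, and Sult1e1 lies farthest right at 7.25 in KO.

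The mu class moved most widely. It holds 7 genes, all tested, that lie next to each other on chromosome 3 in the order Gstm5, Gstm7, Gstm6, Gstm3, Gstm2, Gstm1, Gstm4, and its enzymes conjugate epoxides and other electrophiles. In KO liver 5 of the 7 rose and in LKO liver 6 of the 7, and none fell. Gstm5 passed in neither comparison. The sequences just upstream of 2 genes with the largest mu-class changes and of Gstm5 are shown so that the windows of neighbours that did and did not pass can be read side by side, each as the 250 bases before the RefSeq start site on GRCm38.p6, with capitals marking a core antioxidant response element (TGACNNNGC, the motif bound by NRF2 with small MAF partners).
Gstm2 (chr3:107986421-107986670, minus strand): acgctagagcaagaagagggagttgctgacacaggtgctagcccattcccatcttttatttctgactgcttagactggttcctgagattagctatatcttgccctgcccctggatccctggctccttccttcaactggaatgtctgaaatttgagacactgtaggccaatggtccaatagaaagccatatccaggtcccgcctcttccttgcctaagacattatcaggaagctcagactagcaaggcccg
Gstm3 (chr3:107969175-107969424, minus strand): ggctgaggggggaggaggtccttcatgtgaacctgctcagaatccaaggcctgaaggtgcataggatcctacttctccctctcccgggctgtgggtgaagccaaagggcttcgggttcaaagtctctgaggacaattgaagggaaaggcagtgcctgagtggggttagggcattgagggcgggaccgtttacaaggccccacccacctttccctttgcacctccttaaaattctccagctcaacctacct
Gstm5 (chr3:107895604-107895853, plus strand): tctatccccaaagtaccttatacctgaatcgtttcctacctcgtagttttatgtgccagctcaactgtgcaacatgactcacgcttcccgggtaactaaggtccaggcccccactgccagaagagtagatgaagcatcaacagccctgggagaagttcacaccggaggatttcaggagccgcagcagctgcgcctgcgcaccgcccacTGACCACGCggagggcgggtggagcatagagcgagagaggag

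A window of 300 bases (250 before to 50 after the start) was listed for 59 of the 69 members, 71 windows in all. The E-box CACGTG, the element bound by BMAL1 with its partner CLOCK, was in 0 of the 71 windows and in 7.15% of the 32851 windows of all genes. The core antioxidant response element was in 4 windows (5.63%; 12.4% of all windows), those of Gsta3, Gstm5, Gstm7 and Mgst1. In Gstm5 it began 42 bases before the start site as TGACCACGC, and in Gstm7 129 bases before one of its starts as TGACAAAGC. D-boxes (TTATGTAA or TTACGTAA, either strand), the sites of the PAR bZIP factors, were in 1 window, that of Ugt2b1 (1.06% of all windows). A motif match describes the letters of these windows only, and elements elsewhere were not searched.

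Gstm2 (ENSMUSG00000040562) had the lowest adjusted p of all members in both comparisons. Its level was 88.2, 128 and 110.2 TPM at CT2 and 117, 83 and 101 TPM at CT14 in WT, and 644, 819.9 and 665 TPM at CT2 and 544, 475 and 536 TPM at CT14 in KO. Every KO library lay above every WT library, at a log2 fold change of 2.37 ± 0.21 (adjusted p = 3.87e-07). F libraries held 89.8, 74.4 and 146 TPM at CT2 and 41.2, 74.9 and 55 TPM at CT14, and LKO libraries 419, 485 and 949.7 TPM at CT2 and 415, 435 and 430.1 TPM at CT14. Again no library overlapped, and the log2 fold change was 2.56 ± 0.21 (adjusted p = 1.95e-07).

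Gstm3 stood at 55.2, 189.9 and 142 TPM at CT2 and 123, 79.2 and 94.1 TPM at CT14 in WT and at 506, 998 and 487 TPM at CT2 and 463, 568 and 322 TPM at CT14 in KO. F libraries held 110.2, 97.1 and 114 TPM at CT2 and 58.1, 52.3 and 37 TPM at CT14 and LKO libraries 476, 564 and 1303 TPM at CT2 and 455, 341 and 385 TPM at CT14. The lowest knockout library was above the highest control in both comparisons, with log2 fold changes of 2.10 ± 0.30 (adjusted p = 0.000168) for KO and 2.74 ± 0.30 (adjusted p = 1.70e-05) for LKO. Its highest library was LKO CT2 replicate 3, which was also the highest for Gstm1, Gstm2, Gstm4, Gstm6 and Gstm7. Transcripts of Gstm3 share 28.8% of their 50-base words with other genes, so part of its reads may be divided with relatives.

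Gstm6 gave 90, 198 and 120.0 TPM at CT2 and 131, 113 and 100 TPM at CT14 in WT and 514, 473 and 396 TPM at CT2 and 271, 299 and 308 TPM at CT14 in KO. In the floxed lines it gave 119, 94 and 143 TPM at CT2 and 85, 90.9 and 70 TPM at CT14 in F and 428, 414 and 696 TPM at CT2 and 383, 369 and 417 TPM at CT14 in LKO. Groups did not overlap, and the log2 fold changes were 1.37 ± 0.19 (adjusted p = 0.000104) and 1.95 ± 0.19 (adjusted p = 2.34e-06). Gstm7 shared only 0.532% of its words with other genes and gave 73, 96.6 and 82.6 TPM at CT2 and 65.1, 54 and 55.4 TPM at CT14 in WT and 195, 153 and 165 TPM at CT2 and 173, 162 and 173 TPM at CT14 in KO. Its F libraries held 83.3, 61.2 and 115 TPM at CT2 and 40.2, 55 and 52.8 TPM at CT14 and its LKO libraries 168, 180.0 and 220.4 TPM at CT2 and 136, 144 and 140.1 TPM at CT14. All knockout libraries were above all of their controls, by a log2 fold change of 1.14 ± 0.14 (adjusted p = 3.52e-05) in KO, while LKO gave 1.11 ± 0.14 (adjusted p = 6.43e-05), the smallest errors of the class.

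Gstm1 was the most abundant mu-class transcript, with 1218, 2625 and 2110 TPM at CT2 and 1843, 1469 and 2022 TPM at CT14 in WT and 3885, 7575 and 3093 TPM at CT2 and 4375, 3520 and 2847 TPM at CT14 in KO. F libraries held 1700, 1133 and 2420 TPM at CT2 and 1495, 1129 and 1099 TPM at CT14 and LKO libraries 3629, 4281 and 9039 TPM at CT2 and 4662, 3435 and 3171 TPM at CT14. No knockout library overlapped its controls, although the lowest KO library, 2847 TPM, was close to the highest WT library, 2625 TPM. The log2 fold change was 1.45 ± 0.27 (adjusted p = 0.00387) in LKO and 0.98 ± 0.27 (adjusted p = 0.0365) in KO. The KO call ended when any 1 of 9 of the 12 KO and WT libraries was left out, with an adjusted p of up to 0.11, and at 0.221 without the 2 KO libraries that held spermatid transcripts. The 3 libraries whose removal kept it were WT CT2 replicate 2, KO CT2 replicate 3 and KO CT14 replicate 3.

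Gstm4 passed in LKO at 1.05 ± 0.22 (adjusted p = 0.00896), from 57.5, 43.1 and 65.6 TPM at CT2 and 29.2, 23.2 and 21.3 TPM at CT14 in F to 92.9, 96 and 168 TPM at CT2 and 76.7, 62.1 and 55.9 TPM at CT14 in LKO. The groups overlapped through F CT2 replicates 1 and 3. In KO its log2 fold change was 0.57 ± 0.22 (adjusted p = 0.151). Gstm5 was low in every group, between 16 and 42.7 TPM, with log2 fold changes of 0.42 ± 0.15 (adjusted p = 0.122) for KO and 0.08 ± 0.15 (adjusted p = 0.945) for LKO.

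**Figure D3:**
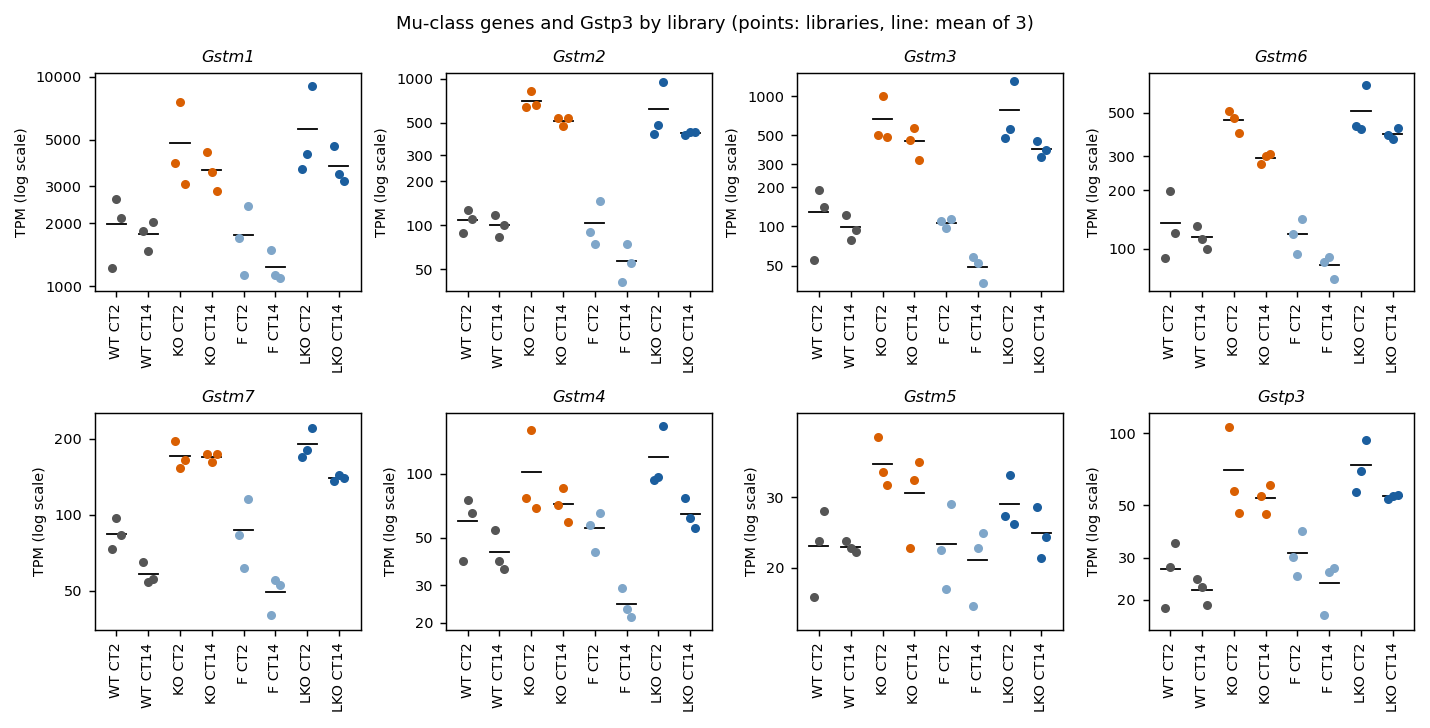
TPM of the 7 mu-class genes and Gstp3 in each library (log axis; points are libraries, lines the mean of 3) for the 8 groups. KO (orange) and LKO (dark blue) points lie above all WT (grey) and F (light blue) points for Gstm1, Gstm2, Gstm3, Gstm6, Gstm7 and Gstp3, and overlap them for Gstm4 and Gstm5.

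The pi class split between its members. Its 3 genes are neighbours on chromosome 19, and its enzymes detoxify electrophiles and bind the kinase JNK. Gstp3 rose in both knockouts, from 18.5, 27.5 and 34.6 TPM at CT2 and 24.6, 22.6 and 19.1 TPM at CT14 in WT to 106, 57.5 and 46.4 TPM at CT2 and 54.5, 45.7 and 60.7 TPM at CT14 in KO, and from 30.2, 25.2 and 38.8 TPM at CT2 and 17.2, 26.3 and 27.2 TPM at CT14 in F to 56.8, 69.5 and 93.9 TPM at CT2 and 53, 54.6 and 55.4 TPM at CT14 in LKO. No library overlapped its controls, and the log2 fold changes were 1.19 ± 0.22 (adjusted p = 0.00171) and 1.04 ± 0.22 (adjusted p = 0.0083). Gstp1, among the most abundant members, passed in neither, at -0.87 ± 0.38 (adjusted p = 0.23) in KO, while LKO gave -0.14 ± 0.38 (adjusted p = 0.973). Its libraries spread widely within a group, at 3433, 3015 and 1937 TPM at CT2 and 2433, 3609 and 2119 TPM at CT14 in WT and 1181, 3165 and 497 TPM at CT2 and 1634, 3127 and 890.0 TPM at CT14 in KO. F libraries held 5454, 3196 and 4311 TPM at CT2 and 4685, 1307 and 3416 TPM at CT14, and LKO libraries 3592, 3263 and 4732 TPM at CT2 and 3781, 3925 and 3971 TPM at CT14. The lowest value belonged to KO CT2 replicate 3. Gstp1 is known as a male-biased liver transcript; the summed level of 11 other male-biased genes was 3430 to 9880 CPM in KO and 5780 to 21800 CPM in WT, and its part was not tested. Gstp2 shares 50.4% of its 50-base words with other genes, so the split between Gstp1 and Gstp2 is uncertain. Gstp2 gave 388, 320.1 and 203 TPM at CT2 and 252, 376 and 225 TPM at CT14 in WT and 136, 319 and 50.7 TPM at CT2 and 176, 333 and 91.3 TPM at CT14 in KO. Gstp2 in the floxed lines gave 641, 339.8 and 474 TPM at CT2 and 486, 141 and 388 TPM at CT14 in F and 382, 357 and 502 TPM at CT2 and 401, 424 and 426 TPM at CT14 in LKO. As with Gstp1, the lowest value was in KO CT2 replicate 3 and the highest in F CT2 replicate 1.

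Alpha-class genes fell where they passed. These GSTs reduce lipid peroxides and conjugate products such as 4-hydroxynonenal, for which Gsta4 is known. In KO liver 3 of the 6 tested alpha genes fell, Gsta1, Gsta2 and Gsta13, and in LKO liver 2, Gsta3 and Gsta4. Gsta2 stood at 13.1, 92.9 and 69.8 TPM at CT2 and 56.9, 36 and 73.7 TPM at CT14 in WT and at 17.6, 35.7 and 11.7 TPM at CT2 and 18.8, 12.4 and 6.93 TPM at CT14 in KO. The groups overlapped because WT CT2 replicate 1 was low, and the log2 fold change was -1.93 ± 0.43 (adjusted p = 0.0117). In the floxed lines Gsta2 gave 21.9, 26.3 and 7.31 TPM at CT2 and 27.7, 27.8 and 16.2 TPM at CT14 in F and 7.99, 9.3 and 17.8 TPM at CT2 and 16.1, 14.3 and 11.9 TPM at CT14 in LKO, a log2 fold change of -0.92 ± 0.42 (adjusted p = 0.363). Gsta2 also shared 47.4% of its words with other genes.

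Gsta1 was scarce, at 1.37, 12.4 and 5.45 TPM at CT2 and 9.09, 4.24 and 8.9 TPM at CT14 in WT and 1.13, 4.84 and 0.639 TPM at CT2 and 0.779, 0.904 and 0.593 TPM at CT14 in KO. KO CT14 libraries were all under 1 TPM and all below the WT libraries of that time, and over both times the log2 fold change was -2.59 ± 0.57 (adjusted p = 0.00932). Gsta1 shares 89.7% of its 50-base words with other genes and Gsta13 92.5%, so neither can be separated with confidence from relatives. Gsta13 gave 1.013, 3.25 and 4.26 TPM at CT2 and 4.93, 2.51 and 5.79 TPM at CT14 in WT and 0.551, 1.54 and 0.314 TPM at CT2 and 0.206, 0.613 and 0.241 TPM at CT14 in KO, the groups overlapping, and had a log2 fold change of -2.89 ± 0.68 (adjusted p = 0.0143) in KO. In LKO, Gsta1 gave -1.59 ± 0.56 (adjusted p = 0.159) and Gsta13 -1.44 ± 0.64 (adjusted p = 0.331), neither of which passed. Gsta13 there gave 3.26, 8.59 and 0.177 TPM at CT2 and 1.36, 2.7 and 0.893 TPM at CT14 in F and 1.19, 0.543 and 2.85 TPM at CT2 and 1.38, 0.362 and 0.561 TPM at CT14 in LKO. The differences between the KO and LKO effects were -0.99 ± 0.77 (adjusted p = 0.9) for Gsta1 and -1.01 ± 0.60 (adjusted p = 0.774) for Gsta2, so a difference between the knockouts was not shown.

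Gsta4, which shares no 50-base word with another gene, stood at 78.6, 63.8 and 60.6 TPM at CT2 and 50.3, 56.1 and 71.7 TPM at CT14 in F and 21.8, 27.2 and 52.7 TPM at CT2 and 33.2, 27.9 and 45.1 TPM at CT14 in LKO. Apart from LKO CT2 replicate 3, each LKO library was below each F library, and the log2 fold change was -1.06 ± 0.19 (adjusted p = 0.00189). WT libraries held 83.4, 99.2 and 104 TPM at CT2 and 95.2, 95.2 and 99.4 TPM at CT14 and KO libraries 94.8, 93.1 and 85.3 TPM at CT2 and 88.9, 79.9 and 69 TPM at CT14. These overlapped over both times, and the KO log2 fold change was -0.34 ± 0.18 (adjusted p = 0.35). At CT14 every KO library of Gsta4 was below every WT library. Gsta4 was not called there with edgeR, while the authors' deposited table at CT14 calls it lower in KO at -0.49. Gsta3, by far the most abundant alpha gene, fell in LKO at a log2 fold change of -0.58 ± 0.15 (adjusted p = 0.034), from 2055, 1914 and 2015 TPM at CT2 and 1957, 2836 and 2573 TPM at CT14 in F to 1864, 2192 and 1759 TPM at CT2 and 1633, 1506 and 1431 TPM at CT14 in LKO. The groups overlapped at CT2. Removing any 1 of 9 of the 12 F and LKO libraries ended the Gsta3 call, with an adjusted p of up to 0.0968; removal of F CT2 replicate 3, F CT14 replicate 1 or LKO CT2 replicate 3 kept it, while removal of F CT2 replicate 3 together with LKO CT2 replicate 3 gave 0.0607.

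Theta-class genes act on small halogenated compounds. Gstt2 fell in both knockouts, with 57.8, 85.7 and 80.6 TPM at CT2 and 113, 106 and 143 TPM at CT14 in WT and 58.2, 83.1 and 45.6 TPM at CT2 and 82.3, 93.9 and 57.1 TPM at CT14 in KO. F libraries held 64.2, 31.6 and 48 TPM at CT2 and 68.3, 74.1 and 83.7 TPM at CT14 and LKO libraries 29.8, 41.7 and 50.2 TPM at CT2 and 34.9, 57.1 and 44.8 TPM at CT14. Groups overlapped over both times, but at CT14 every knockout library was below every control. The log2 fold changes over both times were -0.75 ± 0.18 (adjusted p = 0.0144) for KO and -0.69 ± 0.18 (adjusted p = 0.0373) for LKO, and at CT14 -1.13 ± 0.25 (adjusted p = 0.00962) and -1.03 ± 0.25 (adjusted p = 0.0374). The LKO call over both times ended when any 1 of 8 of its 12 libraries was left out, with an adjusted p of up to 0.122. It was kept without F CT2 replicate 2, F CT14 replicate 2, LKO CT2 replicate 3 or LKO CT14 replicate 2. With limma on log2 TPM the KO call of Gstt2 was lost at an adjusted p of 0.154. The authors' deposited table of LKO against F does not call Gstt2 (adjusted p = 0.0877), while the one at CT14 calls it lower at -1.03. Gstt1 did not pass in either comparison. It gave 288, 497 and 346 TPM at CT2 and 363, 118 and 341 TPM at CT14 in WT and 387, 296 and 297 TPM at CT2 and 264, 244 and 393 TPM at CT14 in KO. In the floxed lines it gave 479, 316 and 476 TPM at CT2 and 308, 412 and 377 TPM at CT14 in F and 257, 316 and 411 TPM at CT2 and 252, 262 and 284 TPM at CT14 in LKO. Over both times the groups overlapped in both comparisons, but at CT14 every LKO library of Gstt1 was below every F library. Gstt1 was not called there with edgeR, while the authors' deposited table at CT14 calls it lower in LKO at -0.70. That table also calls Gstt3 lower in LKO at -1.31, which edgeR did not.

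Among the single-member classes, Gstz1, which also acts in tyrosine breakdown as maleylacetoacetate isomerase, gave 853, 839.9 and 846 TPM at CT2 and 899.8, 865 and 881 TPM at CT14 in WT and 1073, 904 and 1183 TPM at CT2 and 1084, 1130 and 1130 TPM at CT14 in KO. Those libraries did not overlap, while the test gave 0.17 ± 0.10 (adjusted p = 0.414). Gstz1 in the floxed lines gave 807, 706 and 808 TPM at CT2 and 713, 1014 and 869 TPM at CT14 in F and 948, 1046 and 993 TPM at CT2 and 856, 1005 and 1026 TPM at CT14 in LKO, which overlapped. The mitochondrial and peroxisomal Gstk1 gave 144, 175 and 185 TPM at CT2 and 231, 136 and 191 TPM at CT14 in WT and 267, 187 and 224 TPM at CT2 and 222, 178 and 247 TPM at CT14 in KO. Gstk1 in the floxed lines gave 146, 144 and 186 TPM at CT2 and 135, 197 and 152 TPM at CT14 in F and 187, 202 and 208 TPM at CT2 and 194, 189 and 197 TPM at CT14 in LKO. The omega-class Gsto1, known for reducing dehydroascorbate, gave 106, 106 and 139 TPM at CT2 and 100.3, 122 and 137 TPM at CT14 in WT and 128, 153 and 139 TPM at CT2 and 154, 123 and 131.5 TPM at CT14 in KO. Gsto1 in the floxed lines gave 72.4, 75.6 and 109 TPM at CT2 and 107, 91.3 and 98.4 TPM at CT14 in F and 105, 114 and 143 TPM at CT2 and 157, 135 and 127 TPM at CT14 in LKO. Neither gene was called in a knockout, and both overlapped between knockout and control. The other omega gene, Gsto2, was scarce, with 0.312, 0.115 and 0.324 TPM at CT2 and 0.155, 0.411 and 0.112 TPM at CT14 in WT and 0.38, 0.415 and 0.477 TPM at CT2 and 0.184, 0.191 and 0.421 TPM at CT14 in KO. Gsto2 in the floxed lines gave 0.308, 0.182 and 0.543 TPM at CT2 and 0.211, 0.311 and 0.307 TPM at CT14 in F and 0.569, 0.27 and 0.481 TPM at CT2 and 0.565, 0.232 and 0.133 TPM at CT14 in LKO.

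Mgst1, a membrane enzyme that protects against lipid peroxidation and the most abundant member of all, gave 4726, 4602 and 3937 TPM at CT2 and 4745, 4383 and 4819 TPM at CT14 in WT and 4239, 4702 and 4691 TPM at CT2 and 3969, 4901 and 4213 TPM at CT14 in KO. Mgst1 in the floxed lines gave 4960, 4455 and 3226 TPM at CT2 and 3898, 5075 and 4004 TPM at CT14 in F and 4727, 4050 and 3438 TPM at CT2 and 3969, 4414 and 5010 TPM at CT14 in LKO. The groups overlapped, with log2 fold changes of -0.22 ± 0.12 (adjusted p = 0.346) in KO, while LKO gave -0.23 ± 0.12 (adjusted p = 0.426). Its relative Mgst3 fell in LKO at a log2 fold change of -1.28 ± 0.28 (adjusted p = 0.0115), from 59.6, 20.1 and 47.8 TPM at CT2 and 19.7, 49.9 and 46.8 TPM at CT14 in F to 15.7, 25.8 and 28.7 TPM at CT2 and 20.4, 13.7 and 12.3 TPM at CT14 in LKO. The groups overlapped through F CT2 replicate 2 and F CT14 replicate 1, and leaving out the 2 F libraries with pancreatic transcripts gave an adjusted p of 0.0694.

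**Figure D4:**
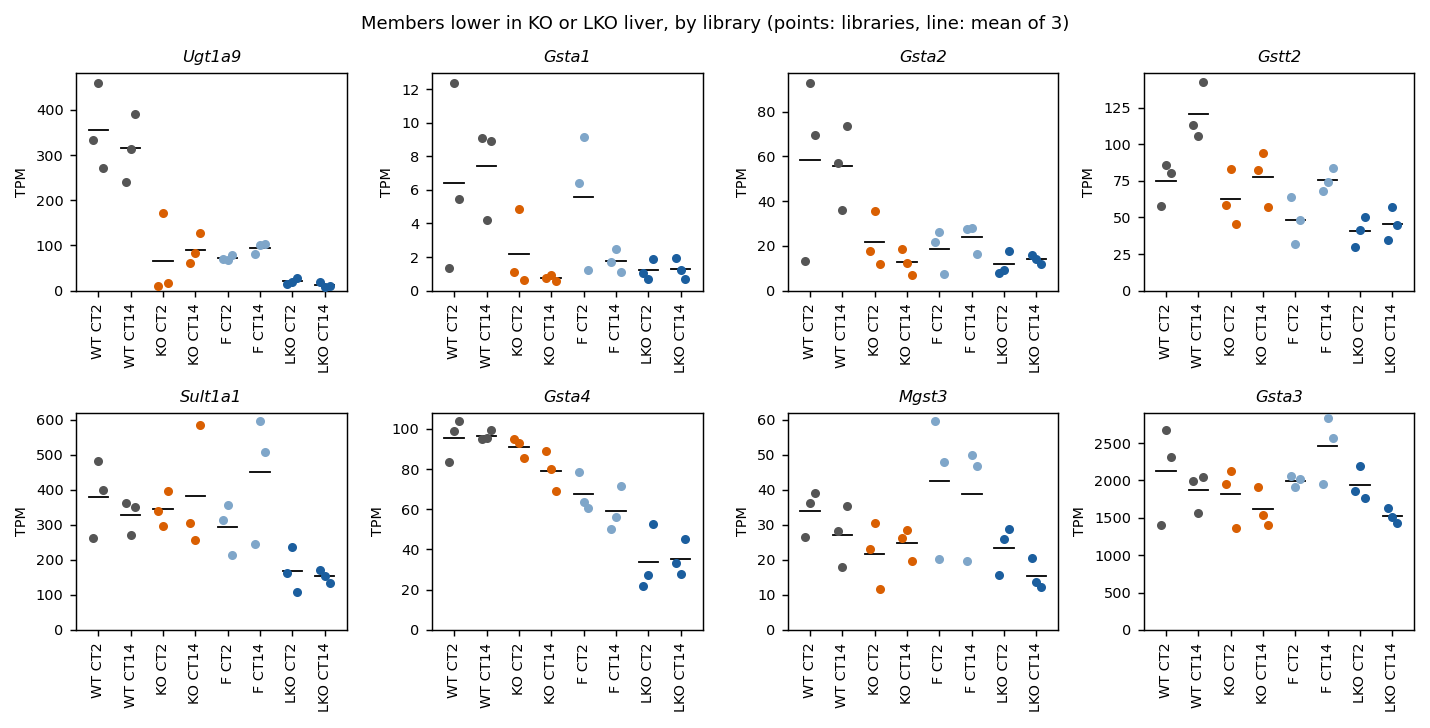
TPM in each library (linear axes; points are libraries, lines the mean of 3) of 8 members that passed as lower in KO, in LKO or in both. Ugt1a9 is near the axis in LKO at 8.64 to 27.4 TPM, and the KO points of Gsta1 at CT14 are under 1 TPM. Sult1a1 and Gsta4 are low in LKO while their KO points overlap WT over both times. At CT14 the KO points of Gsta4 lie below those of WT.

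In the UGT1 family 1 of 8 tested genes passed. Ugt1a genes use alternative first exons joined to common later exons, so their reads overlap, and Ugt1a9 shares 62% of its 50-base words with the other genes. The 250 bases before the Ugt1a9 start are shown as the start region of the UGT that fell (RefSeq, GRCm38.p6), and none of the motifs named above was found there.
Ugt1a9 (chr1:88070529-88070778, plus strand): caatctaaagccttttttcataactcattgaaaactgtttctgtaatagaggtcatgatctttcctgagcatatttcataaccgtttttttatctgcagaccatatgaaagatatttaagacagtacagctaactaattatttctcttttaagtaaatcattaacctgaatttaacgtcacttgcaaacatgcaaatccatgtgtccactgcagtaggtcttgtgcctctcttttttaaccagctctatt

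Ugt1a9 (ENSMUSG00000090175), whose family glucuronidates phenols and drugs, was at 334, 459 and 272 TPM at CT2 and 240.3, 313 and 391 TPM at CT14 in WT. KO libraries held 10.4, 172 and 16.6 TPM at CT2 and 60.8, 83.1 and 128 TPM at CT14, all below WT, with KO CT2 replicate 2 far above the other 2 libraries of its group. The log2 fold change was -2.33 ± 0.48 (adjusted p = 0.00682) in KO. F libraries were already low at 69.7, 68.2 and 79 TPM at CT2 and 80.5, 102 and 104 TPM at CT14, and LKO libraries were lower still at 14.5, 20 and 27.4 TPM at CT2 and 18.2, 8.64 and 10.4 TPM at CT14, with no overlap and a log2 fold change of -2.58 ± 0.49 (adjusted p = 0.00505). F against WT gave -2.02 ± 0.48 (adjusted p = 0.0303), and the floxed allele cannot be told apart there from anything else that separates these lines. That call ended without any 1 of 11 of the 12 WT and F libraries, all but WT CT14 replicate 1, with an adjusted p of up to 0.072, and at 0.0692 without the 2 libraries low in Y-linked transcripts. A fit on the KO and WT libraries alone gave the KO effect an adjusted p of 0.0763. Ugt1a1, the bilirubin enzyme, gave 166, 254 and 257 TPM at CT2 and 324, 213 and 305 TPM at CT14 in WT and 282, 154 and 335 TPM at CT2 and 193, 137 and 187 TPM at CT14 in KO. Ugt1a1 in the floxed lines gave 281, 206 and 285 TPM at CT2 and 381, 419 and 449 TPM at CT14 in F and 228, 235 and 349 TPM at CT2 and 291, 239 and 327 TPM at CT14 in LKO. The groups overlapped over both times, with log2 fold changes of -0.41 ± 0.19 (adjusted p = 0.248) for KO and -0.43 ± 0.19 (adjusted p = 0.305) for LKO. At CT14 every KO library was below every WT library, and every LKO library below every F library. Ugt1a1 was not called there with edgeR, while the authors' deposited tables at CT14 call it lower in KO at -0.89 and in LKO at -0.79. Ugt1a5 came closest of the others, at -1.16 ± 0.32 (adjusted p = 0.0501) in LKO, just outside the threshold. The authors' deposited tables at CT14 call Ugt1a5 lower in KO at -1.26 and in LKO at -1.10. At the level of the family, the sum was 835 ± 104 TPM in WT and 444 ± 17.9 TPM in KO at CT14, and 670 ± 63.9 TPM in F and 490 ± 43.9 TPM in LKO at CT14 (SD, n = 3). At CT2 it was 722 ± 124 TPM in WT and 524 ± 77.6 TPM in KO, and 506 ± 51.9 TPM in F and 481 ± 108 TPM in LKO, where the F and LKO sums differed by less than their SD.

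UGT2 enzymes conjugate steroids and bile acids, and here 0 of 8 tested genes passed in KO or LKO over both times with edgeR. Their log2 fold changes ran from -0.47 to 0.16 in KO and from -0.68 to 0.18 in LKO, and at an unadjusted p under 0.05 the count was 0 in both; DESeq2 and limma called 0. At CT14 the log2 fold changes in KO ran from -0.79 to 0, and 0 passed with edgeR, DESeq2 or limma (1 with edgeR at an unadjusted p under 0.05). The authors' deposited table at CT14 does call 3 of them lower in KO, Ugt2b38 at -0.79, Ugt2b5 at -0.61 and Ugt2b34 at -0.62. In LKO at CT14 the authors' deposited table calls Ugt2b34 lower at -0.32. The most abundant member, Ugt2b5, held 513, 521 and 239.7 TPM at CT2 and 874, 483 and 534 TPM at CT14 in F, 759, 606 and 297 TPM at CT2 and 773, 790.4 and 779 TPM at CT14 in LKO. It gave 481, 748 and 619.6 TPM at CT2 and 709, 824 and 615 TPM at CT14 in WT and 590.3, 906 and 492 TPM at CT2 and 582, 565 and 485 TPM at CT14 in KO, which overlapped. Ugt2b36 gave 369, 567 and 477 TPM at CT2 and 554, 586 and 509.6 TPM at CT14 in WT and 615, 772 and 628 TPM at CT2 and 599, 521 and 551 TPM at CT14 in KO. Ugt2b36 in the floxed lines gave 443, 341 and 176 TPM at CT2 and 476, 364 and 400.3 TPM at CT14 in F and 544, 476 and 262 TPM at CT2 and 547, 558 and 516 TPM at CT14 in LKO. In both genes the lowest library was F CT2 replicate 3. This library and LKO CT2 replicate 3, which are low in Y-linked transcripts, were below all other 22 libraries for 10 of the 55 tested members, among them 7 of the 8 UGT2 genes, Mgst1, Sult1d1 and Sult2a8. The same held for 12.7% of all tested genes. Both UGT3 genes, which use other sugar donors, stayed without a call in the knockouts. Ugt3a2 gave 178, 228 and 253 TPM at CT2 and 229, 212 and 217 TPM at CT14 in WT and 230.2, 297 and 281 TPM at CT2 and 283, 228 and 273 TPM at CT14 in KO. Ugt3a2 in the floxed lines gave 179.5, 199 and 141 TPM at CT2 and 182, 233 and 199 TPM at CT14 in F and 269.9, 224 and 241 TPM at CT2 and 267, 267 and 285 TPM at CT14 in LKO, and each knockout overlapped its controls.

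**Figure D5:**
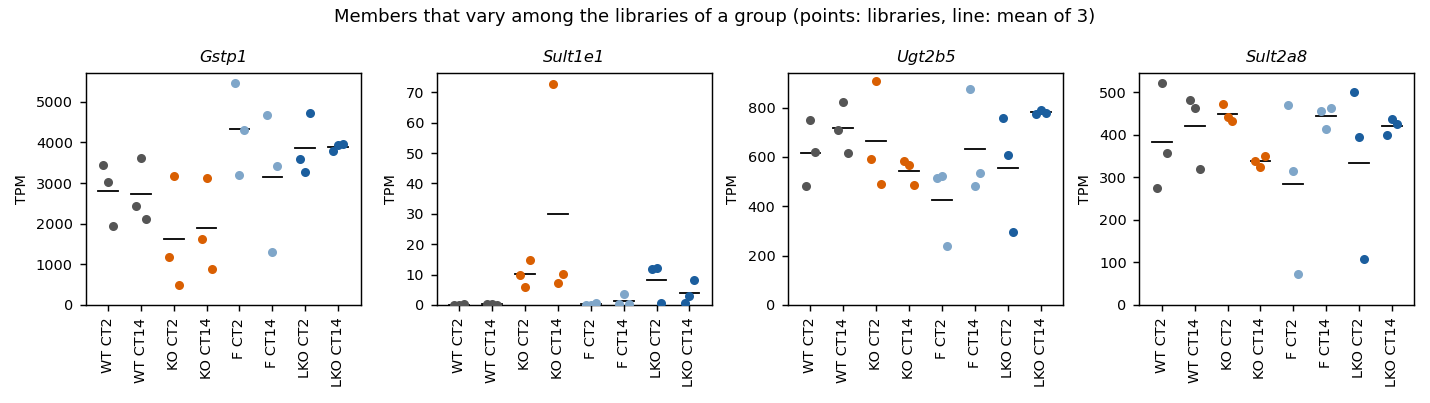
TPM in each library (linear axes; points are libraries, lines the mean of 3) of 4 members with a wide spread. Sult1e1 reaches 72.7 TPM in KO CT14 replicate 1 against at most 0.272 TPM in WT, Ugt2b5 and Sult2a8 have their lowest points in F CT2 replicate 3 and LKO CT2 replicate 3, and Gstp1 ranges from 497 to 5454 TPM.

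Sulfotransferases gave 1 call in KO and 1 in LKO, which were Sult1e1 and Sult1a1. Sult1e1, which inactivates estrogens, was nearly absent in WT, at 0, 0 and 0.189 TPM at CT2 and 0.272, 0.232 and 0 TPM at CT14. KO libraries held 9.75, 5.82 and 14.9 TPM at CT2 and 72.7, 7.34 and 10.3 TPM at CT14. Every KO library was above every WT library, with a fitted log2 fold change of 7.25 ± 1.38 (adjusted p = 0.00373); the size of this fold rests on counts near 0 in WT and on 1 library of 72.7 TPM, while the gene stayed higher in KO in all 35 alternative analyses. At CT14 the call ended without that library, KO CT14 replicate 1, or without any 1 of the 3 WT libraries, with an adjusted p of up to 0.124. Sult1e1 in LKO (11.8, 12.1 and 0.527 TPM at CT2 and 0.498, 3 and 8.08 TPM at CT14) overlapped F (0, 0.0475 and 0.702 TPM at CT2 and 0.158, 3.67 and 0.282 TPM at CT14), and the log2 fold change was 3.02 ± 1.12 (adjusted p = 0.203). The difference between the KO and LKO effects was 4.23 ± 1.62 (adjusted p = 0.45). The summed level of 12 genes known as female-biased in liver, all found, was 6.5 to 36.5 CPM in KO against 12.5 to 138 CPM in WT, and 3.6 to 32.7 CPM in LKO against 9.78 to 82 CPM in F, and the part of this list in the Sult1e1 values was not tested.

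Sult1a1, the phenol sulfotransferase, fell in LKO, from 313, 356 and 213 TPM at CT2 and 246, 596 and 507 TPM at CT14 in F to 164, 236 and 107 TPM at CT2 and 171, 155 and 133 TPM at CT14 in LKO. The groups overlapped only through F CT2 replicate 3 and LKO CT2 replicate 2, and the log2 fold change was -1.40 ± 0.23 (adjusted p = 0.00114). In KO the libraries overlapped WT, with 257 to 586 TPM in KO and 261 to 481 TPM in WT and a log2 fold change of -0.12 ± 0.23 (adjusted p = 0.896). Its KO effect exceeded its LKO effect by 1.28 ± 0.32 (adjusted p = 0.152), which was not past the threshold with edgeR. Sult1d1, which acts on catecholamines, gave 11.3, 30.1 and 22.3 TPM at CT2 and 38.8, 41.3 and 28.6 TPM at CT14 in WT and 58.9, 41.9 and 70.7 TPM at CT2 and 56.6, 61.7 and 47.8 TPM at CT14 in KO with no overlap, but the test gave 0.85 ± 0.34 (adjusted p = 0.174). Sult1d1 in the floxed lines gave 25.2, 24.5 and 7.72 TPM at CT2 and 26.4, 53 and 57.6 TPM at CT14 in F and 48.4, 47.6 and 9.99 TPM at CT2 and 34.9, 51.1 and 49.2 TPM at CT14 in LKO, which overlapped. Sult2a8, a bile acid sulfotransferase and the most abundant SULT, had log2 fold changes of -0.16 ± 0.32 (adjusted p = 0.9) in KO, while LKO gave -0.11 ± 0.32 (adjusted p = 0.975), and was 72.3 and 108 TPM in the 2 libraries low in Y-linked transcripts against 274 to 522 TPM in the rest. By library it gave 274, 522 and 356 TPM at CT2 and 482, 463 and 319 TPM at CT14 in WT and 473, 442 and 433 TPM at CT2 and 338, 323 and 351 TPM at CT14 in KO. Sult2a8 in the floxed lines gave 469.7, 314 and 72.3 TPM at CT2 and 457, 414 and 463 TPM at CT14 in F and 501, 395 and 108 TPM at CT2 and 399, 438 and 424 TPM at CT14 in LKO. Sult2a7 was scarce, at 2.81, 1.66 and 2.24 TPM at CT2 and 3.55, 1.59 and 1.57 TPM at CT14 in WT and 8.72, 4.04 and 28.7 TPM at CT2 and 7.37, 4.74 and 1.65 TPM at CT14 in KO, a log2 fold change of 1.65 ± 0.62 (adjusted p = 0.142), and 0.704, 2.24 and 6.24 TPM at CT2 and 2.06, 15.8 and 2.64 TPM at CT14 in F and 7.73, 5.29 and 1.73 TPM at CT2 and 4.03, 1.83 and 8.3 TPM at CT14 in LKO. Of the 3 tested SULT3 to SULT7 genes none passed in the knockouts with edgeR. The authors' deposited table at CT14 calls Sult5a1 lower in KO at -1.325 and Sult3a1 higher at 4.73. At CT14 Sult5a1 gave 11.2, 4.26 and 13 TPM in KO, all below the WT libraries at 18.5 to 23.8 TPM. Over both times Sult3a1 gave 6.50 ± 2.26 (adjusted p = 0.121) in KO from levels of at most 1.97 TPM. It was listed at 0, 0 and 0 TPM at CT2 and 0.0441, 0 and 0.0355 TPM at CT14 in WT and 0, 0 and 1.97 TPM at CT2 and 1.03, 0.049 and 1.43 TPM at CT14 in KO. Sult3a1 in the floxed lines gave 0.221, 0 and 0 TPM at CT2 and 0, 0.451 and 0 TPM at CT14 in F and 0, 0 and 0 TPM at CT2 and 0, 0 and 0.648 TPM at CT14 in LKO.

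Taken by time point, 4 members passed at CT2 in KO (0.517% of all genes) and 4 in LKO (0.4%), in each case Gstm2, Gstm3, Gstm6 and Gstm7, all higher (0.327% and 0.273% of all genes were higher). At CT14, 10 members passed in KO (5.31% of all genes), with 6 higher (3.15%) and 4 lower (2.15%). In LKO 9 passed (1.73% of all genes), with 4 higher (0.814%) and 5 lower (0.912%). Those 4 mu-class genes rose at CT14 as well, so that each of the 4 passed in every one of the 4 contrasts, and Gstm2 did so in all alternative analyses. At CT2 the KO call of Gstm7 ended without any 1 WT library at CT2, KO CT2 replicate 1 or LKO CT14 replicate 1 (adjusted p of up to 0.239). The Gstm3 call in KO ended when KO CT2 replicate 2, WT CT2 replicate 1 or WT CT2 replicate 3 was removed (up to 0.0741). The LKO call of Gstm7 at CT2 ended without F CT2 replicate 1 or 2 or LKO CT2 replicate 3 (up to 0.143), and that of Gstm3 at 0.0525 without the 2 libraries low in Y-linked transcripts. At CT14 the KO call of Gstm6 ended at 0.0689 without WT CT14 replicate 3. Deviations from the group means correlated weakly between F and LKO libraries of the same number at CT2 (0.143 to 0.312). F CT2 replicate 2 was not closest to LKO CT2 replicate 2, and the highest value joined the 2 libraries low in Y-linked transcripts. With a replicate block among these 6 F and LKO libraries, 6 members passed in LKO at CT2 in place of 4. Gstm1 passed as higher and Gsta4 as lower in addition. With that block 1.12% of all genes passed. Gstm2 rose by 2.56 ± 0.30 in KO and 2.45 ± 0.30 in LKO at CT2, and by 2.18 ± 0.29 and 2.67 ± 0.30 at CT14. The lower calls were at CT14: Gsta1, Gsta2, Gsta13 and Gstt2 in KO, and Ugt1a9, Sult1a1, Gsta3, Gstt2 and Mgst3 in LKO. Of these 9 calls, Sult1a1 held in all 35 alternative analyses. In KO the Gsta1 call ended without any 1 KO library at CT14 (adjusted p of up to 0.0832). The Gsta13 call ended without WT CT14 replicate 1 or 3 or any 1 KO library at CT14 (up to 0.12). Gsta2 lost its call without any 1 WT library at CT14 or KO CT14 replicate 2 or 3 (up to 0.149). Gstt2 lost it without replicate 3 of either group (up to 0.0536). In LKO, Ugt1a9 and Gsta3 ended without F CT14 replicate 2 or 3 or any 1 LKO library at CT14 (up to 0.145 and 0.131). Gstt2 ended there without any 1 F library at CT14 or LKO CT14 replicate 1 or 3 (up to 0.211). Mgst3 ended without any 1 of 18 of the 24 libraries (up to 0.238). The KO call of Gstp3 at CT14 ended without any 1 of 12 libraries (up to 0.162). The change of the knockout effect between times was itself tested, and 0 members passed for KO with edgeR (7 at an unadjusted p under 0.05; 0.799% of all genes passed) or for LKO (3 unadjusted; 0.112%), and DESeq2 and limma called 0 in both. A difference between CT2 and CT14 in these effects was therefore not shown.

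Between CT2 and CT14, 0 members passed in WT with edgeR (5 at an unadjusted p under 0.05, 2 with DESeq2, 1 with limma), where 2.54% of all genes passed. Gstt2 came nearest, with 0.89 ± 0.25 (adjusted p = 0.0689). In F 1 member passed (2.66% of all genes), Gstm7, which was lower at CT14 (1.33% of all genes were) with a log2 fold change of -0.78 ± 0.20 (adjusted p = 0.037), with every CT14 library below every CT2 library. That call ended in 13 of 35 alternative analyses, among them those without any 1 F library at CT14 or without F CT2 replicate 3 (adjusted p of up to 0.223). Gstm4 in F gave -1.13 ± 0.31 (adjusted p = 0.056). In KO 0 members passed (4 unadjusted, 0 with DESeq2 or limma), as did 0 of all 20514 genes (0.0%), and in LKO 0 (4 unadjusted, 0 with DESeq2 or limma; 0.848% of all genes). Gstt2 was 74.7 ± 14.9 TPM at CT2 and 121 ± 19.6 TPM at CT14 in WT, and 62.3 ± 19.1 and 77.8 ± 18.8 TPM in KO (SD, n = 3). The sampled times are 12 h apart, so a rhythm that peaks between them would not be seen.

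The KO and LKO effects were set against each other directly, and 0 members differed with edgeR (6 at an unadjusted p under 0.05, 2 with DESeq2, 0 with limma), where 0.107% of all genes differed. In F against WT 3 members passed, where 2.54% of all genes passed, and all 3 were lower in F (0.912% of all genes). They were Ugt1a9, Ugt3a1 at -0.86 ± 0.20 (adjusted p = 0.0242), and Sult5a1 at -1.34 ± 0.30 (adjusted p = 0.0197). Sult5a1 held 16, 31.6 and 16.9 TPM at CT2 and 23.8, 18.5 and 20 TPM at CT14 in WT and 5.47, 8.03 and 6.59 TPM at CT2 and 5.38, 9.52 and 11.6 TPM at CT14 in F, with no overlap. Ugt3a1 held 88.3, 98.5 and 83.6 TPM at CT2 and 65.7, 61.6 and 59.8 TPM at CT14 in WT and 48.3, 46.2 and 15.9 TPM at CT2 and 47.4, 47.9 and 42.1 TPM at CT14 in F, also with no overlap. Without the 2 F libraries with pancreatic transcripts 1 of the 3 remained past the threshold (0.717% of all genes passed), and 1 or 0 passed without F CT2 replicate 3 (1), F CT14 replicate 3 (1), WT CT14 replicate 2 (1) or WT CT2 replicate 2 (0).

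Genes that supply the cofactors and export the conjugates were followed as lists. The 7 genes of UDP-glucuronic acid supply and glucuronide handling gave no call in any contrast, with a median log2 fold change of 0.05 in KO and -0.09 in LKO. Of 14 genes of glutathione supply and turnover, 2 rose in KO, Cbs, which feeds homocysteine into cysteine synthesis, at 1.13 ± 0.15 (adjusted p = 7.30e-05) and Ggct, of the gamma-glutamyl cycle, at 1.09 ± 0.20 (adjusted p = 0.00154); in LKO Cbs rose at 0.79 ± 0.15 (adjusted p = 0.00348). Cbs also fell from CT2 to CT14 in WT at -1.43 ± 0.21 (adjusted p = 0.000431) and in F at -1.48 ± 0.21 (adjusted p = 0.000441), and Gclc, the catalytic subunit of the rate-limiting enzyme of glutathione synthesis, fell in WT at -1.48 ± 0.26 (adjusted p = 0.00214). Of 10 tested genes of sulfate donor supply, Papss2, a PAPS synthase, fell in KO at -0.48 ± 0.13 (adjusted p = 0.0277) and rose from CT2 to CT14 in F at 1.23 ± 0.18 (adjusted p = 0.000478). Its time effect in LKO differed from that in F by -1.65 ± 0.25 (adjusted p = 0.00423), a tested difference. From CT2 to CT14 its mean went from 35.55 to 78.2 TPM in F and from 68.6 to 55.7 TPM in LKO. Papss2 was also lower in LKO than in F at CT14, at -0.86 ± 0.18 (adjusted p = 0.0109). Over both times it was lower in F than in WT, at -0.53 ± 0.13 (adjusted p = 0.0275). Of 9 export genes, Abcb1a fell in KO at -1.38 ± 0.30 (adjusted p = 0.00784) and in LKO at -1.71 ± 0.31 (adjusted p = 0.00214), from a mean of at most 2.21 TPM in any group. Its close relative Abcb1b fell in LKO at -2.07 ± 0.44 (adjusted p = 0.0101), from a mean of at most 1.39 TPM in any group, and Abcc4 fell in KO at -1.26 ± 0.25 (adjusted p = 0.00305). Abcc3, a basolateral exporter of glucuronides, was higher in LKO than in F at 0.94 ± 0.19 (adjusted p = 0.00688). It was also lower in F than in WT, at -0.93 ± 0.19 (adjusted p = 0.0151). At CT2 and CT14 its means were 77.4 and 82 TPM in WT and 93.9 and 75.1 TPM in KO. They were 40.3 and 44 TPM in F and 95.4 and 88.1 TPM in LKO.

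Of 20 receptors and factors known to act on these families, 3 fell and 1 rose in KO over both times. In LKO 1 fell and 2 rose. Esr1 fell in both, at -1.11 ± 0.25 (adjusted p = 0.00955) and -1.83 ± 0.25 (adjusted p = 0.00016). Nr1i2, the pregnane X receptor, and Por, the reductase that serves cytochromes P450, fell in KO at -0.41 ± 0.11 (adjusted p = 0.0265) and -0.98 ± 0.23 (adjusted p = 0.0155). At CT14, 7 of the 20 fell in KO, among them Dbp at -3.71 ± 0.55 (adjusted p = 0.000289) and Nr1i3, the constitutive androstane receptor, at -0.80 ± 0.21 (adjusted p = 0.0245). Nfe2l2, which encodes NRF2, passed in neither knockout comparison and rose from CT2 to CT14 in F at 1.03 ± 0.17 (adjusted p = 0.00148). Transcripts of these factors do not measure their activity.

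The authors' deposited tables come from DESeq2 comparisons made group by group. In the authors' deposited table of KO against WT 14 members were called, 9 higher and 5 lower (8.31% of its genes), and in that of LKO against F 13, 6 higher and 7 lower (3.65%). The authors' deposited table at CT2 calls 9 members in KO, all higher (2.22%), and 5 in LKO (1.2%). The authors' deposited table at CT14 calls 22 members in KO, 8 higher and 14 lower (12.3%), and 20 in LKO, 7 higher and 13 lower (11.7%). The authors' deposited table for Gstm2 in KO against WT gives a log2 fold change of 2.39, and for LKO against F 2.54. Between CT2 and CT14 the authors' deposited tables call 1 member in WT, Gstt2 (8.0% of its genes), 2 in F, Gstm3 and Gstm4 (2.93%), 0 in KO (0.217%) and 1 in LKO, Gstm4 (4.46%). Beyond the calls above, the authors' deposited table of KO against WT adds Sult1d1 and Sult2a7. That of LKO against F adds Gsta1 and Ugt1a5 and does not call Gstt2 (adjusted p = 0.0877) or Gstm4 (adjusted p = 0.0845).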

How the data were processed

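The authors deposited estimated counts per Ensembl gene for 24 libraries, and TPM values, which are length-corrected levels. The authors also deposited log2 fold changes and raw and adjusted p-values of their DESeq2 comparisons. Per the submitters' processing notes, the build was GRCm39 and the tools were StringTie 1.3.1, HISAT2 2.2.1 and fastp 0.23.2. Neither the annotation release nor the strand setting of the counting is given in the sources used here. Low estimated counts pile up at multiples of 4, which may overstate the precision of scarce genes.

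Counts were rounded and fitted with edgeR 4.0.16 in R 4.3.3: filterByExpr (minimum count 10, minimum total 15), TMM scaling, and 1 robust quasi-likelihood fit of all 24 libraries with 8 group means. There were 14 contrasts. Benjamini-Hochberg adjusted p-values under 0.05 over 20514 genes were counted as calls. Unless another tool is named, each adjusted p is from this fit, and each SE is the log2 fold change divided by the square root of its F statistic. DESeq2 1.42.0 and limma 3.58.1 (on log2 of TPM + 0.1) were alternatives, with other scaling, no filter, counts divided by 4, smaller fits, a replicate block and libraries left out. CPM are counts scaled by library total and TMM factor. Scripts were tested on simulated data.

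Same-numbered libraries were checked for shared deviations from their group means. Correlations were -0.146 to 0.312 over 24 pairs, with 7 libraries closest to their own number. Each of the 3 pairs was over 0.1 in 1 of 8 pairs of groups, F and LKO at CT2 (0.143 to 0.312), and the numbers were taken as pairs there alone; the labels give no origin for the numbers.

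Members were matched by symbol, and all of them entered the description. Values by library were given for members called in any contrast, at least in the groups of that contrast, and for the 2 most abundant of each family; genes of other lists were named where called, except for a result that is not reported here. The members and lists were chosen with earlier results of these data known. Shared 50-base words were counted in GENCODE M21 transcripts. Promoter windows are from RefSeq on GRCm38.p6, a build other than that of the counts, and were matched by symbol. Library totals are estimates, and counting error is small beside the spread between replicates for all but the scarcest members.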

Additional observations from a re-analysis of the deposited data

How the results depend on the processing

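Of the 56 member calls over all contrasts, 30 held under each of the alternatives run for them, 26 were lost under at least 1, and 0 reversed. Calls that held throughout over both times were Gstm2, Gstm3, Gstm6, Gstm7, Gstp3, Sult1e1, Gsta1 and Gsta13 in KO, and Gstm1, Gstm2, Gstm3, Gstm4, Gstm6, Gstm7, Gstp3, Ugt1a9, Sult1a1 and Gsta4 in LKO. Gsta2 in KO was lost, at an adjusted p of 0.0552, with edgeR on KO and WT alone. With 1 library left out, the number of members called was 11 to 13 in KO and 11 to 14 in LKO over both times, 2 to 5 in KO and 3 to 5 in LKO at CT2, and 4 to 12 in KO and 5 to 12 in LKO at CT14. It was 0 to 2 for time in WT, 0 to 3 in F, 0 to 1 in KO and 0 to 0 in LKO, 0 to 1 for the KO and WT time difference, 0 to 0 for LKO and F, 0 to 1 for KO against LKO effects and 0 to 4 for F against WT. The share of all genes called without 1 library is not given here.

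The KO count at CT2 was 4, and 2 without WT CT2 replicate 1 or 3. At CT14 the KO count of 10 became 6 without WT CT14 replicate 1 or KO CT14 replicate 1, 5 without KO CT14 replicate 3 and 4 without WT CT14 replicate 3, and the LKO count of 9 became 5 without F CT14 replicate 2 or 3 or LKO CT14 replicate 1 or 3. The share of all genes called also changed with the setting and is given in brackets. DESeq2 called 8 in KO (2.02%) and 9 in LKO (2.23%) at CT2, 2 for time in WT (4.85%) and 2 for time in F (6.98%). It called 2 for KO against LKO effects (1.1%) and 5 for F against WT (4.85%). Limma called 7 in KO (0.921%) and 7 in LKO (1.06%) at CT2, 1 for time in WT (2.37%) and 2 for time in F (2.36%). No filter gave 6 in KO at CT14 (2.65%) and 0 for time in F (1.17%), where counts divided by 4 gave 2 (4.09%). Without the 2 F libraries with pancreatic transcripts the counts were 5 in LKO at CT14 (1.16%), 0 for time in F (0.976%) and 1 for F against WT (0.717%). Without the 2 KO libraries with spermatid transcripts they were 2 for time in F (2.22%), 1 for time in KO (Ugt1a9, 0.0188%) and 1 for the KO and WT time difference (0.4%). Without the 2 libraries low in Y-linked transcripts, an alternative chosen after seeing the data, they were 0 for time in F (3.09%), 1 for KO against LKO effects (Gsta4, 0.141%) and 5 for F against WT (2.47%). With KO CT2 replicate 1, the lowest of the other 22 at 65.9 CPM, left out as well, they were 1 for time in WT (5.19%), 1 for KO against LKO effects (Gsta4, 0.151%) and 6 for F against WT (3.17%). A fit on the 2 genotypes compared gave 1 for time in WT (Gstt2, 2.87%) and 0 for time in F (1.47%). It was not run for KO against LKO effects or F against WT. The cause of these changes was not tested.

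Over all libraries, a replicate block gave 11 calls in KO (4.89% of all genes), 13 in LKO (2.84%), 0 for time in F in place of 1 (2.58%), and 3 for F against WT (1.87%). It ended the calls of Gstm1 in KO over both times, Gstm7 in KO at CT2, Sult1e1 and Gstp3 in KO and Mgst3 in LKO at CT14, and Gstm7 for time in F. With F and LKO libraries of the same number taken as pairs at CT2, the block among them alone, chosen after seeing the data, gave 6 calls (1.12% of all genes) in place of 4 (0.4%). With 3 libraries a group, differences of scarce genes such as Gsta13, Sult1e1 and Sult3a1 are imprecise.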
